A study of Arabidopsis thaliana with 4 samples.

Results

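The genes described here are *G6PD2* (*AT5G13110*), its neighbour *AT5G13100*, which shares its peaks, and *GSTF6* (*AT1G02930*). Within the part of the authors' list used here, they are 3 of 842 target genes of AtbZIP17. They were found by joining the called ChIP-seq peaks to these loci by peak name, which gave 7 different peaks out of 13344 in the 3 peak lists. *G6PD2* and *AT5G13100* were selected on the pileup and fold enrichment of their peaks, which are among the highest of the series, so these values are a description and were not tested. A target gene is a gene for which the authors list a peak of each replicate in the 2 kb upstream of it. Of the 2629 lines of that list, each joining 1 peak of every replicate to a gene, 1389 were used here. The other 1240 lines hold further target genes, so ranks and shares among the 842 genes cover only part of the authors' target genes.

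All samples came from 13-day-old *Arabidopsis* seedlings that carried *35Spro::MYC-bZIP17*, a MYC-tagged AtbZIP17 driven by the strong, constitutive 35S promoter, so the tagged protein can be made beyond the cells and levels of the native gene. The seedlings were grown at 22 °C and moved to 42 °C for 2 h. There were 3 anti-MYC ChIP samples, called replicates 1, 2 and 3, and 1 input library of the same genotype and treatment, taken without antibody. No unheated sample and no sample without the tag was used here, so no conditions were compared. Nothing in the sources says that the replicates came from separate cultures, so the spread between them may be technical. Whole seedlings were used, and binding in more cells cannot be told apart from more binding per cell.

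AtbZIP17 is a membrane-anchored transcription factor of the endoplasmic reticulum (ER) that is cut under stress and then enters the nucleus. *G6PD2* encodes a plastid-type glucose-6-phosphate dehydrogenase, the enzyme that opens the oxidative pentose phosphate pathway and reduces NADP to NADPH. NADPH keeps glutathione and thioredoxin reduced. *GSTF6* encodes a phi class glutathione S-transferase, an enzyme that joins glutathione to reactive compounds, and its synonym *ERD11* refers to early induction by dehydration. No role is given for *AT5G13100* in the annotation used here.

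The peak shared by *G6PD2* and *AT5G13100* was among the highest in all 3 lists. The peak of *GSTF6* was far lower, but by pileup it lay above 70.4% to 78.6% of the peaks in the lists. For each peak, the pileup counts the fragments that cover the summit. The fold enrichment is close to the pileup divided by the background that MACS expected at that place from the input. The pileup at *G6PD2* and *AT5G13100* was 458, 556 and 507 fragments in replicates 1, 2 and 3. The peak ranked 9 of 4523, 7 of 4491 and 7 of 4330 by pileup. Its fold enrichment was 24.0, 32.5 and 30.2, which is 28.9 ± 4.39 (SD, n = 3). Replicate 1 had the lowest and replicate 2 the highest value on both scales. Of the 8 peaks with a higher pileup in replicate 1, 3 had a fold enrichment under 3, and so did 1 of the 6 such peaks in each of replicates 2 and 3. In the whole lists, 14.7%, 17.1% and 17.6% of the peaks had a fold enrichment of 3 or more. By fold enrichment, the peak ranked 3, 3 and 4.

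At *GSTF6*, the 3 replicates had pileups of 44, 40 and 42 fragments. The median peak of the 3 lists had 35, 35 and 34 fragments. The *GSTF6* peak ranked 918, 1227 and 1006 by pileup, above 78.6%, 70.4% and 75.4% of the peaks in the lists. Its fold enrichment was 2.79, 2.61 and 2.82, with a mean of 2.74 ± 0.110 (SD, n = 3), and it ranked 807, 1064 and 880. The 3 values differ little and all lie under 3. The −log10 *q* value was 7.00, 5.57 and 6.79, so each peak had a *q* value below 1e-05.

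**Figure D1:**
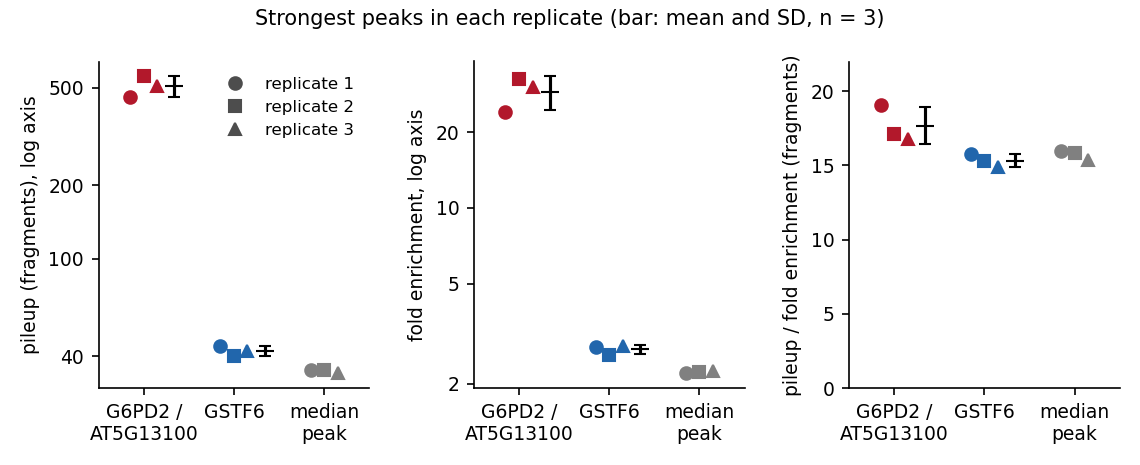
Pileup (fragments, log axis), fold enrichment (log axis) and pileup divided by fold enrichment (fragments) at the strongest peak of *G6PD2* and *AT5G13100*, at *GSTF6* and at the median peak of each list, where symbols are the 3 replicates and bars give the mean and SD (n = 3). The shared peak stands at 458 to 556 fragments and *GSTF6* at 40 to 44, while the third panel runs from 14.9 to 19.1 fragments at these loci.

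Within the same replicate, the fold enrichment at *G6PD2* was 8.60, 12.4 and 10.7 times that at *GSTF6*, with a mean ratio of 10.6 ± 1.92 (SD, n = 3). For pileup, the ratio was 10.4, 13.9 and 12.1. The values at the 2 loci do not overlap, but *G6PD2* was selected on these same values. The local background, approximated as the pileup divided by the fold enrichment, was 19.1, 17.1 and 16.8 fragments at *G6PD2* and 15.8, 15.3 and 14.9 fragments at *GSTF6*. In replicates 1, 2 and 3, the background at *G6PD2* was 1.21, 1.12 and 1.13 times that at *GSTF6*. The median background over all peaks of a list was 16.0, 15.8 and 15.4 fragments. In each replicate, the background at *G6PD2* was above that at *GSTF6* and at the median peak. All of these backgrounds rest on 1 input library, so the 3 values at a locus are not independent measures of it. The part of the background in the fold enrichment was not tested.

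On chromosome 5 of TAIR10, replicate 1 had the shared peak from 4155311 to 4159454. Replicate 2 had it from 4154732 to 4157944 and replicate 3 from 4154770 to 4159065. Its summit lay at 4156389, 4156377 and 4156380, within 12 bp. The widths were 4144, 3213 and 4296 bp, against a median width of 416, 441 and 440 bp in the lists. The region from 4155311 to 4157944, 2634 bp long, was covered in all 3 replicates. The left ends differed by 579 bp and the right ends by 1510 bp, so the summit was much more constant than the borders. From the summit to the right end, at higher coordinates, the peak reached 3065 bp in replicate 1, 1567 bp in replicate 2 and 2685 bp in replicate 3.

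*G6PD2* had a second peak in replicate 2, from 4158358 to 4158773, which is not listed for *AT5G13100*. Its pileup was 32 fragments, its fold enrichment 1.94 and its −log10 *q* value 2.03, and it ranked 3091 by pileup, under the median peak. The strong peak of the same replicate was 16.8 times higher in fold enrichment. The 2 summits were 2327 bp apart, and 413 bp between the peaks were not called. In replicates 1 and 3, the broad peak covered the whole of this second peak and ended 681 and 292 bp beyond it. The right flank was thus called as 1 peak in replicates 1 and 3 and as 2 peaks in replicate 2. The distance of 2327 bp is longer than the 2 kb upstream window. Gene starts were not set against the peaks here, so the position of either summit relative to *G6PD2* is not given.

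**Figure D2:**
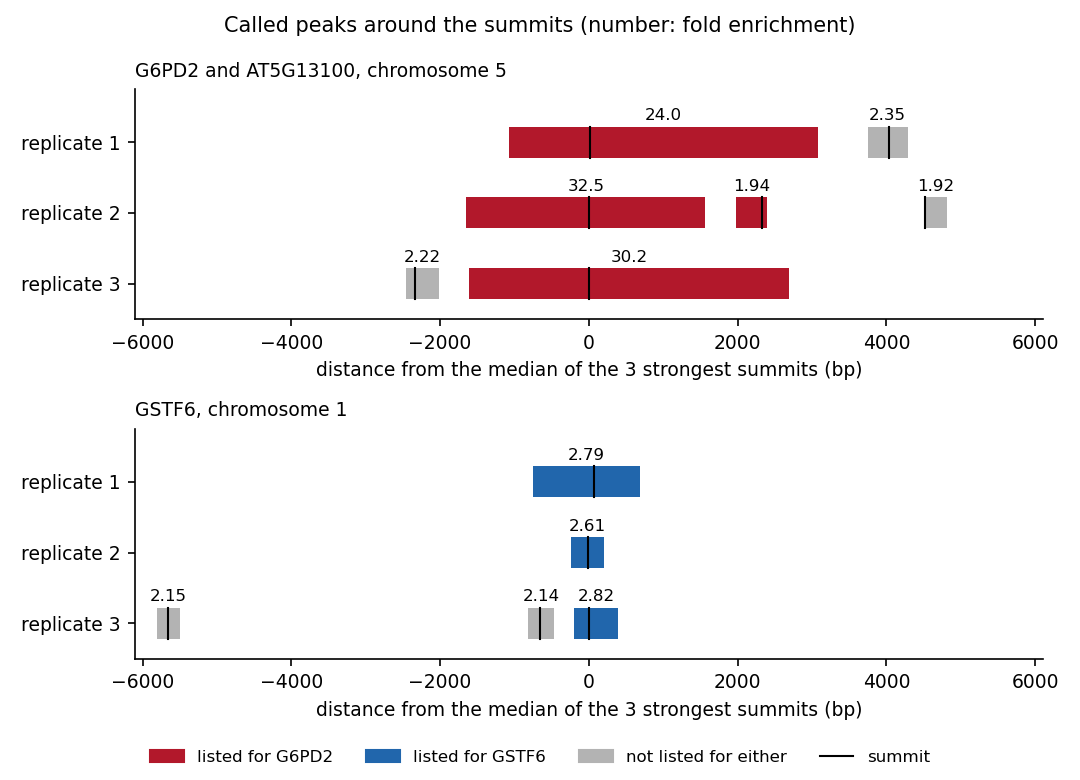
Called peaks around *G6PD2* and *AT5G13100* and around *GSTF6* in the 3 replicates, drawn by distance in bp from the median of the 3 strongest summits, with black lines for summits, grey boxes for peaks not listed for these genes and numbers for fold enrichment. The strong summits on chromosome 5 line up within 12 bp, and the second peak of *G6PD2*, at 1.94, is separate in replicate 2 alone.

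On chromosome 1, replicate 1 had the *GSTF6* peak from 661730 to 663173. Replicate 2 had it from 662243 to 662679 and replicate 3 from 662278 to 662879. The summits at 662555, 662475 and 662483 were spread over 80 bp. The widths were 1444, 437 and 602 bp. The widest peak was 1.34 times the narrowest at *G6PD2* and 3.30 times at *GSTF6*. All 3 replicates covered 402 bp, from 662278 to 662679. In replicate 3, a further peak between 661668 and 662009 had 31 fragments at its summit and was enriched 2.14-fold. It lay 268 bp to the left and is not listed for any target gene used here. The wide peak of replicate 1 covered 81.9% of it, and replicate 2 had no peak there. The extra width of replicate 1 therefore spans a place that was called separately in replicate 3.

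Seen against peaks of like height, the 2 loci differed in width. Among peaks whose pileup was within 20% of the shared *G6PD2* peak, the median width was 7083 bp in replicate 1 (11 peaks), 6081 bp in replicate 2 (11 peaks) and 6216 bp in replicate 3 (10 peaks), the shared peak included. The *G6PD2* peak, at 4144, 3213 and 4296 bp, was narrower than these medians in each replicate, and in replicate 2 no peak of the 11 was narrower. At *GSTF6*, peaks within 20% of its pileup had a median width of 482, 414.5 and 450.0 bp. The *GSTF6* peak was wider than 96.1% of them in replicate 1, 54.7% in replicate 2 and 70.0% in replicate 3.

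**Figure D3:**
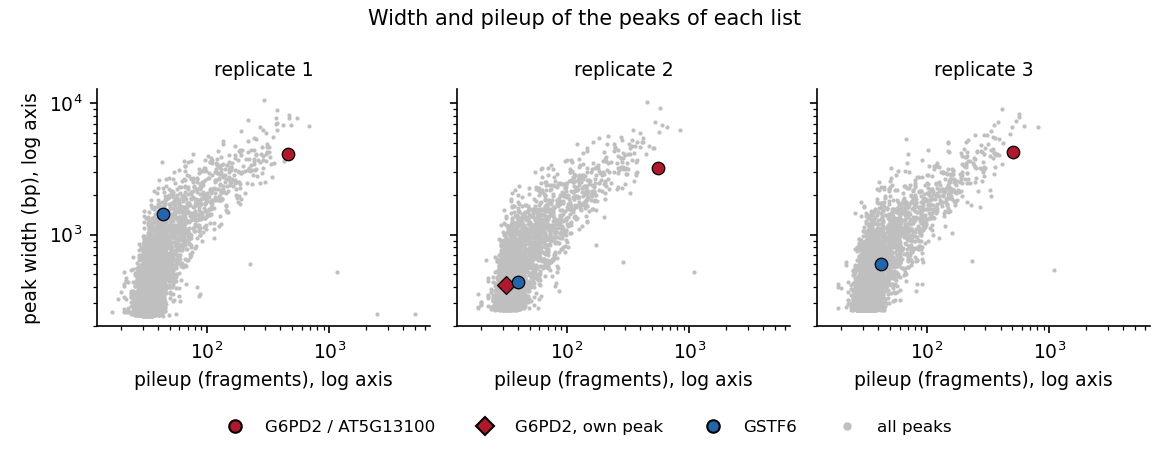
Width (bp) against pileup (fragments) of every peak in each list, both on log axes, with the peaks of *G6PD2* and *AT5G13100* and of *GSTF6* marked. The shared peak has a high pileup of 458 to 556 fragments with a width of 3213 to 4296 bp, below most peaks of like pileup, and *GSTF6* lies inside the main cloud.

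The replicates were not on quite the same scale at strong peaks. Among the 54 different peak sets of target genes with a mean fold enrichment of at least 10, 48 were lowest in replicate 1. The median ratio of replicate 2 to replicate 1 was 1.21, with quartiles of 1.13 and 1.31, and that of replicate 3 to replicate 1 was 1.20, with quartiles of 1.10 and 1.33. At *G6PD2* these ratios were 1.35 and 1.26, and at *GSTF6* they were 0.937 and 1.01. Relative to its mean, the SD at *G6PD2* was 15.2%, compared with a median of 11.6% over the 54 sets. At *GSTF6* it was 4.02%, compared with a median of 10.3% over the 80 sets whose mean lies within 1 SD of that of *GSTF6*.

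A fold enrichment of 3 was exceeded by *G6PD2* and *AT5G13100* in every replicate and by *GSTF6* in none, where 47.1% of the 842 target genes (397) did. This count uses the values by which the shared peak was chosen. Each of the 3 genes had a line whose peaks were all below a *q* value of 1e-05, as had 65.7% of the target genes. The 3 genes take up 4 lines, 2 of them for *G6PD2*, and the 3 peaks overlapped one another by at least 1 bp in all 4 lines. An overlap of this kind was found for 93.6% of the target genes. When each pair of peaks had to share 50% of both widths, the line with the second *G6PD2* peak and the *GSTF6* line no longer passed. *G6PD2* and *AT5G13100* each kept a line that passed, as did 59.1% of the target genes, and *GSTF6* did not.

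By mean fold enrichment, *G6PD2* and *AT5G13100* together ranked 1 of the 842 target genes in the lines used here. *GSTF6* ranked 578, above 31.4% of these genes. The median of the target genes was 3.34. The next peak sets after *G6PD2* were that of *AT1G20430*, with 28.2 ± 4.18, and that of *MYB11*, which encodes a MYB transcription factor, with 28.1 ± 5.19 (SD, n = 3 each). Both differ from the *G6PD2* set by less than its SD. The fourth set, listed for *AT1G56320*, had 23.6 ± 4.01 (SD, n = 3). The means of 96 other target genes lay within 1 SD of the mean of *GSTF6*.

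**Figure D4:**
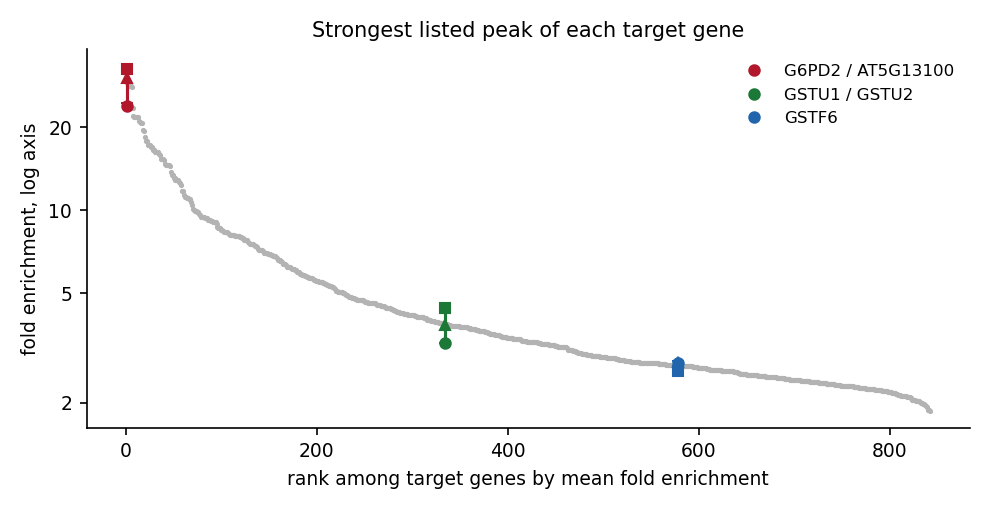
Fold enrichment (log axis) at the strongest listed peak of the 842 target genes, ordered by the mean of the 3 replicates (grey), with *G6PD2* and *AT5G13100*, *GSTU1* and *GSTU2*, and *GSTF6* shown by replicate (circle 1, square 2, triangle 3) and by their SD. They stand at ranks 1, 334 and 578, with means of 28.9, 3.85 and 2.74.

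The target genes whose fold enrichment over the 3 replicates was most like that of *G6PD2*, by Euclidean distance on the log2 scale, were *AT1G20430*, *COR47* and *AT1G20460*, which share 1 set of peaks on chromosome 1. *COR47* encodes a dehydrin that accumulates in cold and drought. Their fold enrichment was 23.4, 31.1 and 30.0 in replicates 1, 2 and 3, at a distance of 0.07. Replicate 1 was lowest and replicate 2 highest there too, but a like order was favoured by the choice on these same values. The mean width was 3884 ± 586 bp at *G6PD2* (SD, n = 3) and 6885 bp at *COR47*, with mean pileups of 507 and 478 fragments. The genes most like *GSTF6* were *PAO2*, a polyamine oxidase gene, *SK32*, a gene of a shaggy-like kinase, and *AT5G46910*, at distances of 0.08, 0.08 and 0.09 over the 3 replicates. Their mean fold enrichments were 2.72, 2.70 and 2.77. The distance weighs the height of the peaks and the order of the replicates together.

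*AT5G13100* and *G6PD2* follow each other in the RefSeq order of protein-coding loci, and the strongest peaks of both are the same in all 3 replicates. For 32.5% of the target genes (274 of 842), the strongest peak is listed for another gene in every replicate. The peak lists do not tell at which of the 2 genes the shared binding acts. The outer neighbours, *AT5G13090* and *AT5G13120*, are not named in these lines. *GSTF6* lies between *GSTF7* (*AT1G02920*) and *GSTF5* (*AT1G02940*), 2 other phi class genes. Neither of these occurs in the lines used here, and the *GSTF6* peaks are listed for *GSTF6* alone.

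A list of 1380 loci goes with the data, made up of genes induced by heat in the flowers of WT plants and not in those of the *bzip17* mutant. None of the 3 genes is on it, and 6.77% of the target genes (57 of 842) are. The flower list comes from another tissue, another heat treatment and plants without the tagged protein. It also leaves out genes induced by heat in both WT and mutant flowers. The absence of *G6PD2* and *GSTF6* from this list thus says nothing about their expression in the heated seedlings.

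Other redox genes were looked up in the same lines of target genes. Of 68 genes in 4 lists, 4 occur in these lines, namely *G6PD2*, *GSTF6*, *GSTU1* and *GSTU2*. This is 5.88% of the lists, beside 2.82% of the protein-coding loci in the RefSeq table (777 of 27562). No test was run since only part of the lines was used. *G6PD2* and *GSTF6* are counted although they were chosen as target genes, and *GSTU1* and *GSTU2* share 1 set of peaks. These shares are therefore not a measure of excess. Of the 14 genes of the oxidative pentose phosphate pathway, only *G6PD2* occurs, and the other 5 genes of glucose-6-phosphate dehydrogenases, the 5 of 6-phosphogluconolactonases and the 3 of 6-phosphogluconate dehydrogenases do not. Of the 41 glutathione S-transferase genes, 1 of 13 in the phi class and 2 of 28 in the tau class occur. None of the 7 genes of glutathione synthesis, glutathione reductases and NADPH-thioredoxin reductases, and none of the 6 genes of catalases and ascorbate peroxidases, occurs in the lines used.

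*GSTU1* (*AT2G29490*) and *GSTU2* (*AT2G29480*), tau class glutathione S-transferase genes, share their peaks on chromosome 2 with *AT2G29510*. The fold enrichment there was 3.30, 4.42 and 3.84 in the 3 replicates, with a mean of 3.85 ± 0.562 (SD, n = 3). The pileup was 86, 109 and 90 fragments. Each of these values was above that of *GSTF6* in the same replicate and far below that of *G6PD2*. The peak ran from 12632891 to 12634009 in replicate 1, and its 3 summits at 12633501, 12633505 and 12633576 were spread over 75 bp. *GSTU1* and *GSTU2* ranked 334 among the 842 target genes. As at *G6PD2*, the order of the replicates was 1, 3, 2 from low to high. Neither gene is on the flower list, and the single gene of the 68 that is on it, *GSTU10* (*AT1G74590*), does not occur in the lines of target genes used here.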

How the data were processed

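The authors mapped trimmed reads with Bowtie to unique positions of the genome (TAIR10 per the submitters' processing notes), removed duplicates and ran MACS on every ChIP sample separately, with 1 input as the control and a *P* limit of 0.001. The deposited pileup is a signal, in fragments at the summit. The deposited fold enrichment is a linear ratio, close to ChIP pileup over local background. The deposited lists also give the −log10 of the p-value and q-value, and the peak width. They state no read totals, so the depth of each sample is unknown and no counting interval is given. A place without a peak can hold enrichment just under the limit.

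Peaks were joined to genes by name through 1389 lines of the supplementary list of target genes, and 1240 lines were not used here. The strongest listed peak of a gene was taken by fold enrichment in each replicate. Ranks are within a list, and the windows reached 20000 bp to each side. Symbols and the order of loci were taken from the RefSeq table of TAIR10.1, which holds 823 of the 842 loci. Its coordinates served only to put the loci in order. They were not set against the peaks, since its build carries another name. The symbols of 65 of the 68 redox genes matched. The members and lists were chosen with earlier results of these data known. Named genes are the members, list genes among the targets, adjacent loci and, for each peak set, the 3 genes nearest in log2 fold enrichment. *AT2G29510*, *MYB11*, *AT1G56320* and *GSTU10* were named after their values were seen. No comparison between groups was possible, so no test was run. The overlap, strongest peak and rank steps were checked on simulated data with 500 genes, and all 50 peak sets placed apart were found. Those sets lay far apart for their widths, so split or partly overlapping peaks like those at the members were not checked. Each replicate left out, pileup against fold enrichment, stricter q-value and fold limits, and another overlap were tried. Promoter motifs were not searched, as no genome sequence was used here. The work was done in Python 3.11.15 with NumPy 2.4.6, pandas 2.3.3 and matplotlib 3.10.9.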

Additional observations from a re-analysis of the deposited data

How the results depend on the processing

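Of 41 alternative values, 37 stayed within 1 SD of the replicates or within 1.5 times the reported count, and 4 moved further. The mean of 3 replicates cannot move by 1 SD when 1 of them is left out, so those values could not count as moved. *GSTF6* has 1 peak in each replicate, so its mean over all listed peaks could not change either. Most of the 37 values were thus fixed in advance and say little about stability. With the mean over all peaks listed for the gene in place of the strongest, *G6PD2* had a mean fold enrichment of 23.8 and a mean pileup of 419.7 fragments, because its weak second peak in replicate 2 then counts. *AT5G13100* has no second peak and keeps its values. The mean rank of the shared peak was 7.67 by pileup and 3.33 by fold enrichment. Of the 4 combinations of peaks at the 3 genes, 2 remained with a reciprocal overlap of 50%. Leaving out 1 replicate at a time, the mean fold enrichment ran from 27.1 to 31.3 at *G6PD2* and from 2.70 to 2.80 at *GSTF6*, and their ratio from 9.66 to 11.6. No pairing of conditions was possible because all ChIP samples belong to 1 condition. Only the loci were compared within a replicate. Unknown depth limits all levels to comparisons within a list or of the values MACS gave.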

Other observations

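Peaks within 20000 bp of the summits that are not listed for the 3 genes were also counted. Around *G6PD2* there were 2, 1 and 2 such peaks in replicates 1, 2 and 3, and none of them overlapped a peak of another replicate. In replicate 1, a peak with its summit at 4160418 and a fold enrichment of 2.35 began 675 bp after the broad peak. In replicate 2, a peak with its summit at 4160905 and a fold enrichment of 1.92 lay 2950 bp after the broad peak. In replicate 3, a peak at 4154046 with a fold enrichment of 2.22 lay 400.0 bp before it. Around *GSTF6* there were 1, 0 and 4 unlisted peaks in replicates 1, 2 and 3, and 1 of them, the peak of replicate 3 from 661668 to 662009, overlapped a peak of another replicate. The highest of them, in replicate 3, had its summit at 644565, with 42 fragments and an enrichment of 2.53-fold. Counting all peaks, the window held 3, 3 and 3 peaks around *G6PD2* and 2, 1 and 5 around *GSTF6*, with a median of 3 around the strongest peaks of target genes in each replicate.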
